A study of Homo sapiens with 24 samples.

Results

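The replication-dependent histone genes encode the core histones H2A, H2B, H3 and H4 and the linker histone H1 that package newly copied DNA. They were taken from the count table by symbol, in the older (HIST1H, HIST2H and so on) or the present nomenclature (H1-1 to H1-6, H2AC, H2BC, H3C and H4C followed by a number), leaving out pseudogenes. The rule found 69 genes among 60668 rows. They comprised 6 H1, 17 H2A, 18 H2B, 13 H3 and 15 H4 genes. Of the 69, 52 had enough counts to be tested (4 H1, 13 H2A, 14 H2B, 11 H3 and 10 H4), and 17 did not. RNA was sequenced from 2 lines of immortalised, non-tumorigenic human mammary epithelial cells grown in 3 dimensions on Matrigel. The parental line was MCF-10A. The second line expressed MYC-ER, in which the transcription factor MYC is joined to a receptor domain so that 4-hydroxytamoxifen (4-OHT) activates it. Each line was given 1 µM 4-OHT for 0, 8, 24 or 48 h, with 3 libraries in each of the 8 groups. Treatment began on day 3 at the earliest and every culture was collected on day 5, so all groups shared the culture age, the matrix and the collection time. The parental groups received the same drug and carried no fusion, and the MYC-ER 0 h group carried the fusion without drug. The labels name 1 MYC-ER line and do not give its promoter, whether it is a clone, or the species of its MYC. They do not say whether the 3 libraries of a group came from separate cultures, so p-values measure the spread between these libraries, which may be technical.

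Replication-dependent histone genes lie mostly in clusters, many as head-to-head H2A and H2B pairs that share 1 stretch of promoter. Their transcription rises as cells enter S phase, driven by NPAT, a substrate of cyclin E and CDK2. Unlike other messenger RNAs, the canonical transcripts end just after a short stem-loop instead of in a poly(A) tail. The stem-loop binding protein SLBP holds that hairpin, and the U7 small nuclear ribonucleoprotein, with LSM10, LSM11 and ZNF473, directs the cleavage. Some of these genes also make longer transcripts that run past the hairpin to a polyadenylation signal, and these are known from differentiated and non-dividing cells. The libraries were poly(A)-selected, so they sample the polyadenylated forms, together with whatever unpolyadenylated RNA passed the selection. The values below therefore do not measure the canonical histone messages as such.

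The stem-loops are shown because they mark the 3' end of the canonical transcript, which the annotated models of several members pass. A stem-loop lay in at least 1 annotated transcript of 31 of the 69 members. The sequences are from GENCODE 29 on GRCh38, written 5' to 3' on the gene's strand, with the 16-base hairpin in capitals and 5 bases on either side.
H2AC6, chr6:26124669-26124684, plus strand: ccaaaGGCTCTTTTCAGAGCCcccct
H4C8, chr6:26285131-26285146, minus strand: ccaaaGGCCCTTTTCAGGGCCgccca
H3C8, chr6:26270923-26270938, minus strand: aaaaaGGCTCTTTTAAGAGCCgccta
H4C14, chr1:149833032-149833047, plus strand: ccaaaGGCCCTTTTTAGGGCCgacca
H3C6, chr6:26225596-26225611, plus strand: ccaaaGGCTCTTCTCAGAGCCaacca
H2AC11, chr6:27133515-27133530, plus strand: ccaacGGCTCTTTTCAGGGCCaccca
The H2AC6 hairpin was the commonest and was found in 17 members. The H4C8 form was found in 5 members, all H4 genes, the H3C8 form in 4, and the H4C14 form in 3. The H3C6 and H2AC11 forms were each found in 1 member. Among models that hold the hairpin, the one that runs furthest past it was taken. It went on past the hairpin for 1128 bases in H2AC6, 1655 in H4C8 and 1518 in H3C8. In H4C14 it went on for 1167 bases, in H3C6 for 1862 and in H2AC11 for 1761. For H4C8 and H3C6 a second annotated model stopped 18 and 5 bases after the hairpin. The counts, made per gene, do not separate the forms.

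Levels, as counts scaled to a common library total (CPM) per kilobase of the longest annotated transcript and averaged over the 24 libraries, differed between members by how their annotation ends. In 22 members a model runs at least 200 bases past the hairpin. All 22 passed the count filter, their median level was 1.30 CPM per kilobase, and they ranged from 0.125 to 26.2, the latter in H2AC25. In 9 members every model that holds the hairpin ends within 200 bases of it. H2BC4 and H2BC5 are among these 9, and each also has a longer second model without the hairpin, whose length sets their level per kilobase. Their median level was 1.97 CPM per kilobase, with H2BC5 highest at 19.9, and 8 of the 9 passed the filter. In 36 members no annotated model holds a hairpin. Among these are short models, such as 381 bases in H2BC12 and 312 in H4C12, and a hairpin missing from a model does not show that the gene lacks one. Their median was 0.0968 CPM per kilobase and 20 passed the filter, but H2BC12, with 77.6 CPM per kilobase, belonged here and had the highest level of any member on this scale. H1-2 followed with 38.6, then H2AC25 with 26.2 and H2AC6 with 25.3 CPM per kilobase. The other 2 members, H3C2 and H3C3, are not in this annotation release. Both have rows in the count table, so the counts were made with another annotation, whose release is not given. The lengths used here may differ from those counted over. The order of members per kilobase rests on these lengths, 381 bases for H2BC12 and 642 for H1-2.

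**Figure D1:**
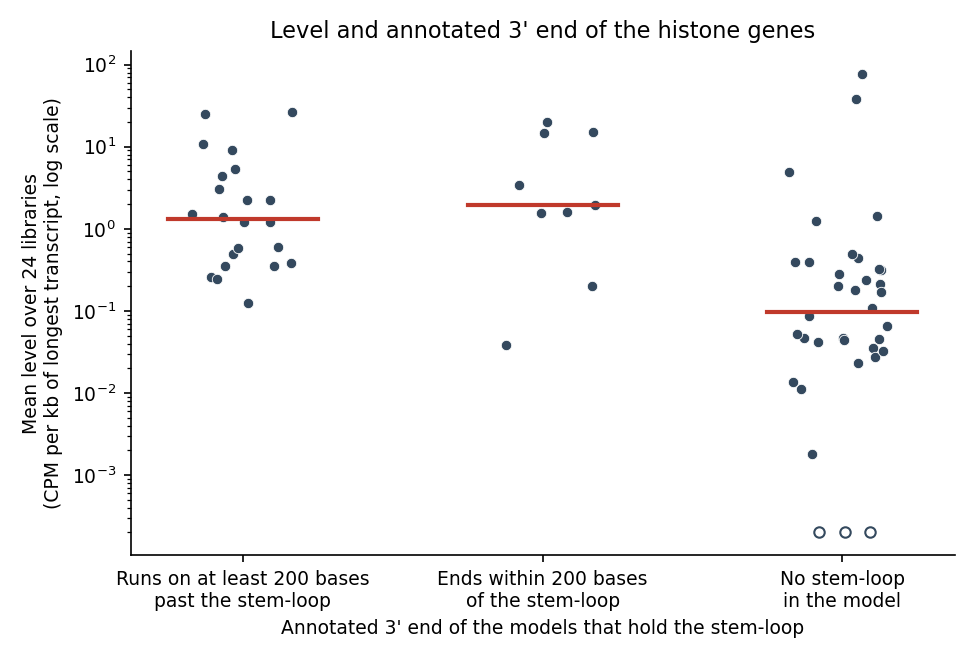
Mean level of each member over 24 libraries (log scale, CPM per kilobase of the longest transcript), by annotated 3' end. Genes are classed by where models that hold the stem-loop end relative to it, or by having no such model. Points are genes, red bars are medians (1.30 for models that run on, 1.97 where models that hold the hairpin end near it, 0.0968 for models without it), and the 3 open points at the bottom are genes with 0 counts in every library; H3C2 and H3C3 have no model and are not drawn.

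A few members held most of the counts. H2AC6 alone took 17% of the summed CPM of the 69 members over all libraries, 5 members took 55.3% and 11 took 84.1%. A mean of at least 1 CPM was reached by 27 members. At the other end H2AC1, H2BC1 and H4C6 had 0 counts in all 24 libraries, where 3 counts, taken as the limit a count of 0 allows, would be 0.0219 CPM in the smallest library. The 17 members that failed the filter had at most 16 counts in any library. The members map to 6p22 (53 genes), 1q21 (11), 1q42 (2) and 12p (1). 15 of the members, among them H4C14, H4C15, HIST2H2AA3, HIST2H2AA4, H3C14 and H3C15, share at least 50% of their 100-base windows with another gene, so how reads were split between copies is uncertain. H3C14 and H3C15 also lie antisense to H4C15 or H4C14, and whether the counting used strand is not given. The counts of called members below take each copy as a separate gene.

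Promoters are shown for the members whose shared or own promoters the results below turn on. The sequences are the 250 bases before the RefSeq transcription start (GRCh38.p14), 5' to 3' on the strand of the named gene. Matches to the motifs searched are in capitals. RefSeq starts can differ from those of the GENCODE 29 models used elsewhere here. The H3C8 stretch lies inside its GENCODE gene (chr6:26269405-26271815), and the H2AC6 stretch runs past its GENCODE start (chr6:26124145).
H2AC6 (shared with H2BC4), chr6:26123922-26124171, plus strand: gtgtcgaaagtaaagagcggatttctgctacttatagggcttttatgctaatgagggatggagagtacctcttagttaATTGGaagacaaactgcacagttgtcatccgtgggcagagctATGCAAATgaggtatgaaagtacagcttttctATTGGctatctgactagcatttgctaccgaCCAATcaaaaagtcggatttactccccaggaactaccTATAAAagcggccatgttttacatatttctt
H2AC25 (shared with H2BC26), chr1:228457874-228458123, minus strand: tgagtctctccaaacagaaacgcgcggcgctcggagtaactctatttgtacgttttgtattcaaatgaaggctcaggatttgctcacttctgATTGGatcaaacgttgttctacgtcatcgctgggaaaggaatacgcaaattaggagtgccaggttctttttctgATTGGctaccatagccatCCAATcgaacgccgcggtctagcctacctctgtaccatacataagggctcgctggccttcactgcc
H3C8, chr6:26271414-26271663, minus strand: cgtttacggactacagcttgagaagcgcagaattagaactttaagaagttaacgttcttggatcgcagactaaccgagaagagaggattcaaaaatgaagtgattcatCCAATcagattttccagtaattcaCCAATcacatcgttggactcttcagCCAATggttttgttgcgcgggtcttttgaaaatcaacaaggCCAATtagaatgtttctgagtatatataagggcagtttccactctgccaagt
The 5 motifs below were searched on both strands in windows of 250 bases before to 50 bases after the start, for 64 of 69 members and for 35116 RefSeq promoters. The octamer ATTTGCAT, the recognition sequence of POU2F1, was in 40.6% of member windows and 1.77% of all windows. It was in 11 of 16 H2A and 14 of 18 H2B windows, 1 of 11 H3 windows and none of the 6 H1 or 13 H4 windows. CCAAT was in 84.4% of member windows against 34.6%, and in 3 of 13 H4 windows. TATAAA was in 65.6% against 11.5%, and the E2F-type sequence TTTNGCGC was in 18.8% against 1.79%. The E-box CACGTG, the canonical MYC:MAX sequence, was in 0 of 64 member windows and 7.26% of all windows. The H2AC6 stretch holds the octamer on the minus strand, a TATAAA and 3 CCAAT matches. The H2AC25 stretch holds 3 CCAAT matches with neither octamer nor TATAAA, and the H3C8 stretch 4 CCAAT matches. These are matches to letters, and a missing match says only that those letters are not in the window.

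Library totals ran from 136860029 to 182438505 counts, a 1.33-fold range, and 22158 genes were tested. The 7 basal epithelial markers were all tested, and their sum was 9797 to 14984 CPM in the MYC-ER groups and 19996 to 26525 CPM in the parental groups. The sum of 6 luminal markers, of which PGR was at 0 counts in every group, moved with time in MYC-ER cells. It was 238 CPM at 0 h and 636, 397 and 454 CPM at the later times, and 292 to 381 CPM in parental cells. KRT18 made up most of the 8 h value, at 503 CPM after 97.0 at 0 h. Leukocyte markers stayed at or below a group mean of 0.0252 CPM and endothelial markers at or below 1.95 CPM. CDKN2A and CDKN2B, which lie in a region deleted in MCF-10A, had 0 counts in all 24 libraries. The 6 fibroblast markers stood apart in 1 group. Their summed level was 372 ± 4.11 CPM (SD, n = 3) in MYC-ER 0 h and 79.6 to 127 CPM in the other 7 groups. This rested on COL1A1 and DCN, at group means of 215 and 157 CPM there, while COL1A2 was at 0 in that group and PDGFRA was at 0 too. MYC-ER 0 h is the reference of every comparison with 0 h in that line, and the part of the fibroblast and luminal marker differences in the results was not tested. The data are from bulk RNA, in which fewer cells making a transcript and less transcript per cell cannot be told apart.

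In the MYC-ER line, the histone sum fell to a trough at 8 h of 4-OHT. By 48 h it was back near or above its 0 h level. Of the 52 members tested, 46 had their lowest group mean at 8 h. H2BC12 and H1-2 had theirs at 24 h. The summed level of the 69 members was 400, 381 and 388 CPM in the 3 libraries at 0 h and 150, 140 and 145 CPM at 8 h. It was 247, 248 and 252 CPM at 24 h and 417, 409 and 390 CPM at 48 h. The 8 h and 24 h libraries lay below the 0 h libraries without overlap, and the 48 h libraries overlapped them. With scaling by library size alone the 48 h sum was above that of 0 h, at 448 ± 12.2 against 385 ± 14.5 CPM. As group means the sum was 390 ± 9.33 CPM (SD, n = 3) at 0 h and 37.3%, 63.9% and 104% of that at 8, 24 and 48 h. In the parental line the sum was 268 ± 22.1 CPM at 0 h and fell to 61.4%, 62.9% and 71.2% of that, with no return to the starting level. Without the members that have near-identical copies the MYC-ER sum over the 4 times was 316, 116, 183 and 316 CPM. The family sums did not share 1 course in the MYC-ER line, and single genes carried those of H1 and H3. H1-2 gave 49.5 of the 49.8 CPM of the H1 sum at 48 h, and H3C6 gave 27.2 of the 31.3 CPM of the H3 sum at 0 h. At 8 h the H3 sum stood at 16.6% of its 0 h value, H4 at 30.1%, H2A at 31.5%, H2B at 50.7% and H1 at 62.2%. At 48 h H1 stood at 173% and the 4 core families at 92.0% to 106%.

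**Figure D2:**
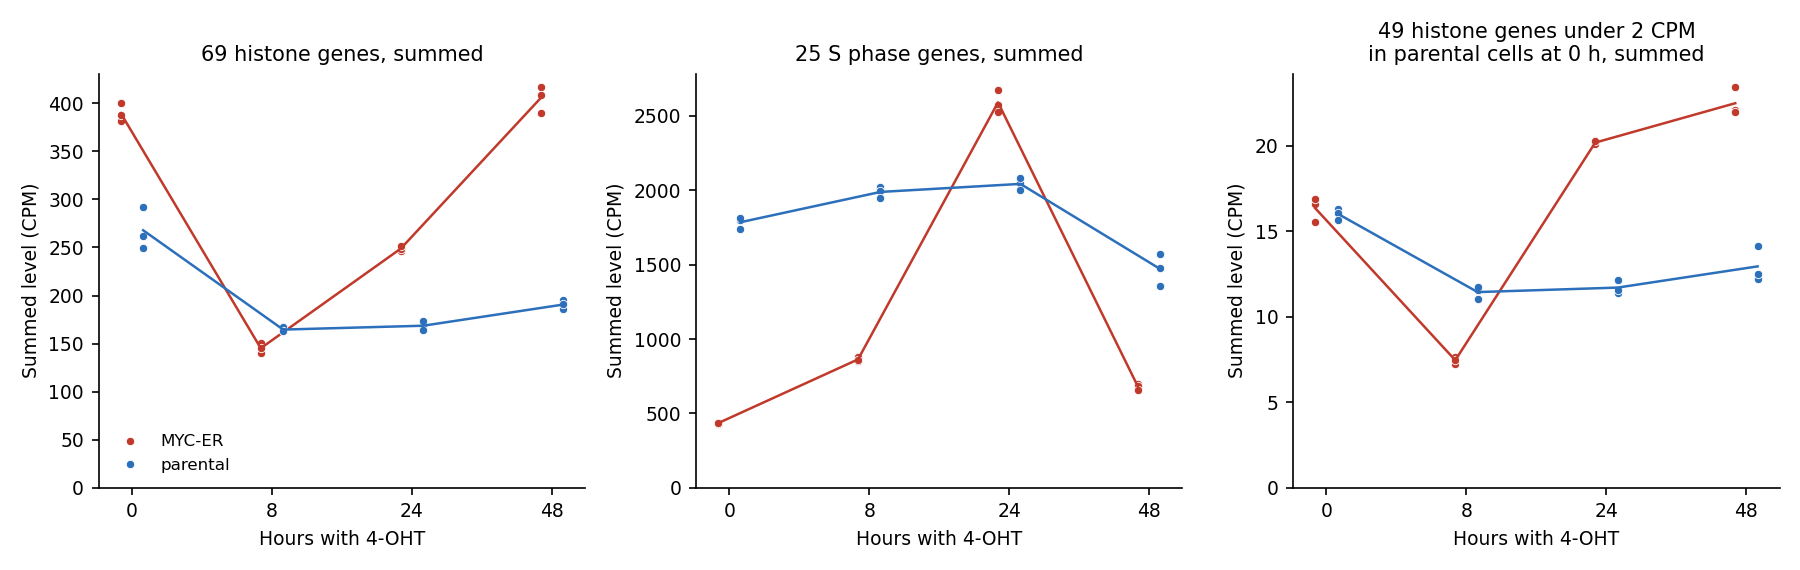
Summed CPM by line and 4-OHT time (times drawn as equally spaced categories; points are libraries, lines join group means). The MYC-ER sum of the 69 histone genes goes from 390 CPM at 0 h to 145 at 8 h, 249 at 24 h and 405 at 48 h, while the parental sum goes from 268 CPM to 165, 169 and 191.

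At 8 h no member was called higher in MYC-ER cells and 38 of 52 were called lower. The test was edgeR's quasi-likelihood test with Benjamini-Hochberg adjustment over all genes at 0.05. Across all genes tested 67.6% were called at this time, 35.4% lower and 32.2% higher, so the members' share of calls was near the background and their direction was not. The median log2 change of the 52 was -1.41, against -0.10 for all genes. The lowest and highest libraries of the groups did not overlap for 36 of 52 members, beside 73.5% of all genes. The falls reached all 5 families, with 2 of 4 H1, 12 of 13 H2A, 10 of 14 H2B, 7 of 11 H3 and 7 of 10 H4 genes called.

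Among the H2A genes, H2AC6 had the highest counts. It gave 78.9, 75.3 and 77.4 CPM in the MYC-ER 0 h libraries and 25.9, 22.8 and 21.7 CPM at 8 h. All 3 libraries at 8 h lay below all 3 at 0 h, a log2 change of -1.72 (SE 0.06, adjusted p = 2.2e-16). H2AC25, the H2A gene of the 1q42 pair (chr1:228456979-228457873, minus strand), went from 60.9, 51.2 and 57.2 CPM to 11.8, 11 and 12.7. Its log2 change of -2.25 (SE 0.095, adjusted p = 5.3e-15) was again without overlap. H3C6, an H3 gene at chr6:26224199-26227473 (plus strand), went from 28.4, 27.1 and 25.9 CPM to 3.41, 4.8 and 4.32. This was a log2 change of -2.70 (SE 0.12, adjusted p = 1.22e-14). H4C8, an H4 gene at chr6:26277609-26285638 (minus strand), went from 10.9, 10.1 and 9.3 CPM to 1.6, 1.36 and 1.67, a log2 change of -2.71 (SE 0.17). H4C14 went from 26.2, 26.4 and 24.4 CPM to 7.85, 7.53 and 6.79, a log2 change of -1.80, and its near-identical copy H4C15 gave -1.83. In each of these members the groups did not overlap.

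The H2B genes with the most counts fell less evenly. H2BC5 (chr6:26158146-26171349, plus strand) had a log2 change of -1.47 and H2BC21 (chr1:149884459-149886652, minus strand) one of -1.91. H2BC12, the member with the highest level per kilobase, gave 38.6, 37.3 and 38.1 CPM at 0 h and 30, 26.3 and 27.8 CPM at 8 h. Its log2 change was -0.44, without overlap of the libraries, and -0.11 and not called with trends on base composition and transcript length removed. The linker histone H1-2 (chr6:26055787-26056428, minus strand) gave 28, 27.4 and 30.6 CPM at 0 h and 17.7, 17 and 19 CPM at 8 h, a log2 change of -0.68 (SE 0.11, adjusted p = 1.11e-05). Another linker histone, H1-3, had 0 counts in 2 of 3 libraries at 8 h, after 0.0754, 0.0284 and 0.0526 CPM at 0 h. H1-5 had 0 counts in all 3 MYC-ER libraries at both 0 and 8 h and allows no fold change. H2BC26 (0.615, 1 and 0.853 CPM at 0 h, 0.767, 1.29 and 0.961 at 8 h) and H2BC4 were not called, with log2 changes of 0.29 and -0.22, and the libraries of the 2 times overlapped. Without the members at 0 counts in a whole group (H1-5, and H3C2 at 8 h) the median of the remaining 50 was again -1.41.

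**Figure D3:**
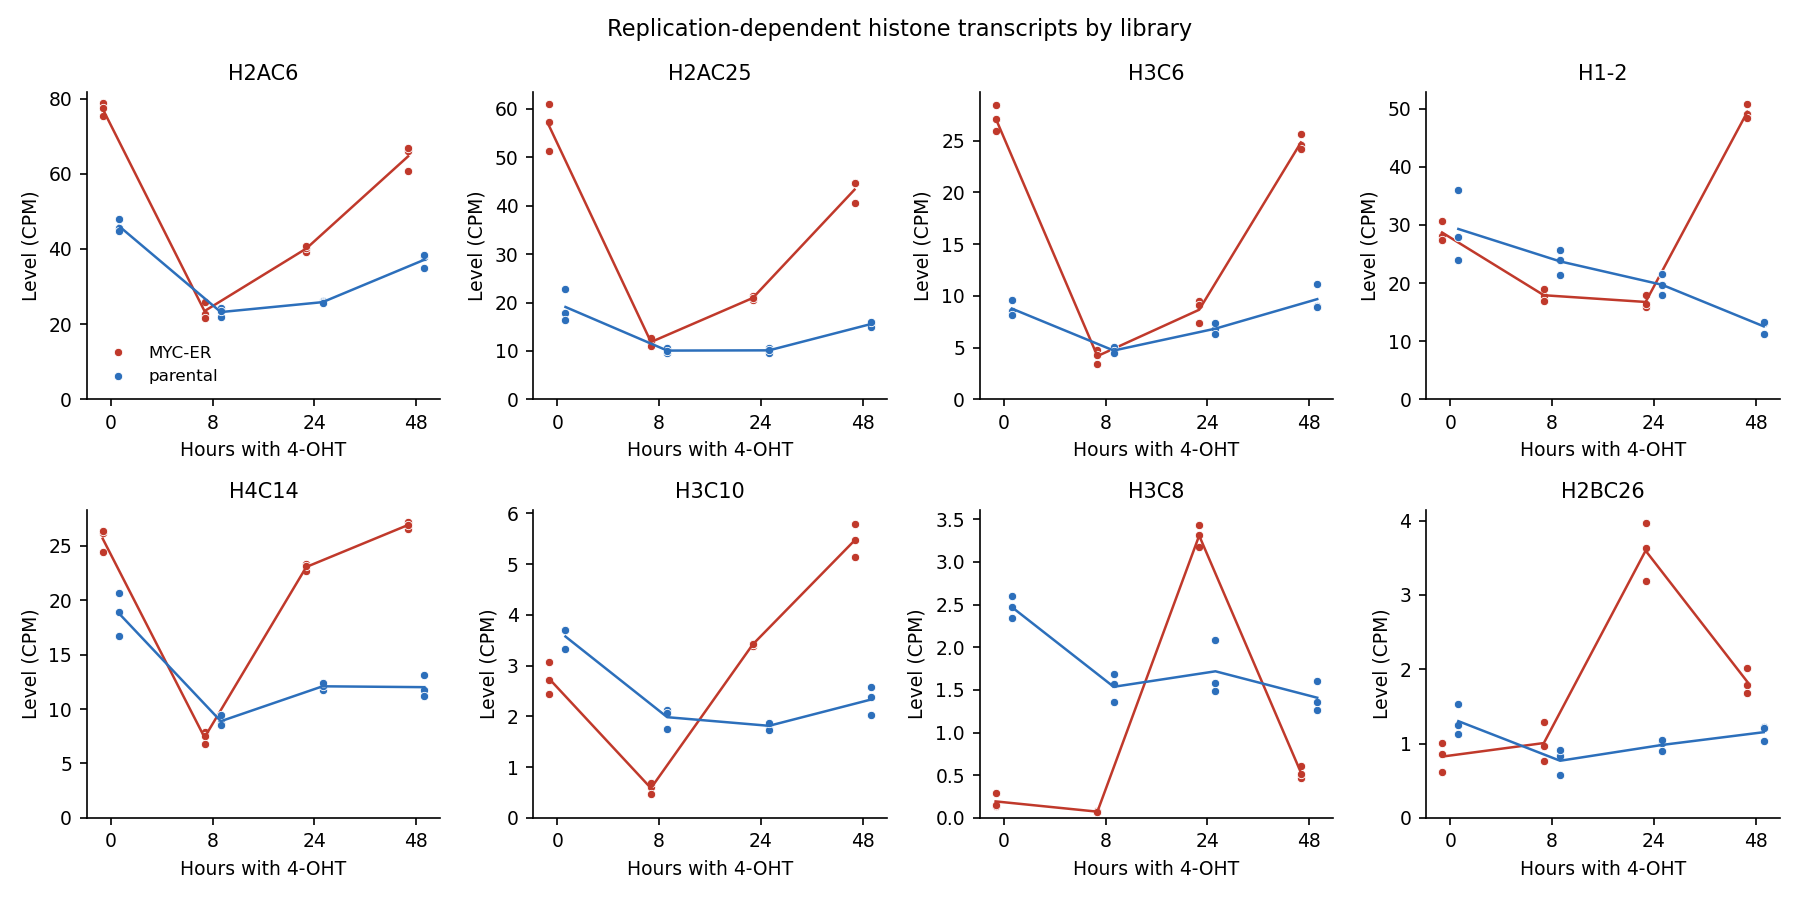
CPM of 8 members in every library against 4-OHT time (equally spaced categories; red MYC-ER, blue parental; points are libraries and lines join group means). H2AC6, H2AC25, H3C6 and H4C14 fall at 8 h in MYC-ER cells and climb afterwards, H1-2 peaks at 48 h, and H3C8 and H2BC26 peak at 24 h.

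At 24 h the members had split into some above and some below their 0 h level. Of 52, 18 were higher and 13 lower, with 61.6% of all genes called (30.4% higher, 31.2% lower), so both shares of the members were near the background. The median log2 change was 0.12, or 0.08 without H1-5, against -0.02 for all genes. With at least 10 counts in every library required, 32 members remained, 8 higher and 13 lower. The groups did not overlap for 38 of 52 members, beside 70.7% of all genes.

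The H3 genes were mostly higher at 24 h, 9 of 11, with 1 lower and a median of 1.53. Several of the 11 were near 0 at 0 h. In counts, H3C1 had 2, 3 and 0 there, H3C2 2, 0 and 0, and H3C3 8, 6 and 3. H3C7 had 4, 5 and 4 counts and H3C12 3, 14 and 4. Such members passed the count filter through other groups and could hardly be called lower. H3C14 and H3C15 are copies and not separate evidence. Among the H3 genes with at least 1 CPM, H3C8 moved furthest. Its libraries gave 0.29, 0.136 and 0.152 CPM at 0 h, 0.0723, 0.078 and 0.0667 at 8 h and 3.31, 3.43 and 3.18 at 24 h. The 24 h libraries stood far above all others of the line, a log2 change from 0 h of 4.10 (SE 0.22, adjusted p = 4.66e-13). In the parental line H3C8 was at 2.47, 2.6 and 2.34 CPM at 0 h and did not rise at any time, so at 24 h the MYC-ER libraries went above the parental ones. Another 2 H3 genes of low level, H3C3 and H3C14, were also higher at 24 h, with log2 changes of 3.10 and 0.80. H3C10 (chr6:27810064-27811300, plus strand) reached 3.39, 3.42 and 3.44 CPM from 3.08, 2.43 and 2.71, a log2 change of 0.32. The H3C10 call was lost in 8 alternative analyses, among them those without 0 h replicate 2 (0.24) or 3 (0.31) and those without any 1 of the 24 h libraries (0.31 to 0.32). H3C6 was the H3 gene still lower, at 7.42, 9.46 and 9.09 CPM, a log2 change from 0 h of -1.65 (SE 0.11, adjusted p = 3.18e-11).

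In the other families, 5 H2B genes were higher and 5 lower, 1 H2A gene was higher and 4 lower, and 1 H4 gene was higher and 2 lower. The linker histone H1-4 rose from 0.029, 0.051 and 0.0701 CPM to 0.21, 0.164 and 0.135 (log2 change 1.75, adjusted p = 0.00437), a low level throughout. H2BC26 rose to 3.63, 3.96 and 3.19 CPM, a log2 change of 2.12, and its 24 h libraries lay above all others of either line. H2BC9 (2.36, 2.67 and 2.18 CPM at 0 h) fell to 0.926, 0.944 and 0.827 at 8 h and rose to 4.9, 6.32 and 6.2 at 24 h. H2BC11 and H2BC4 were higher by 1.30 and 1.37 on the log2 scale. The members with the most counts were among the lower ones. H2BC12 was at 26.7, 24.8 and 26.5 CPM (log2 change -0.55). H2AC6 was at 39.3, 40.2 and 40.9 CPM (log2 change -0.94), H2AC25 at 21.3, 20.6 and 21 (-1.43), H2BC5 at 12.8, 12.7 and 12.3 (-1.17), H2BC21 at 10.4, 10.5 and 9.56 (-0.86) and H1-2 at 15.9, 16.5 and 17.9 (-0.78). H4C14 was at 23.4, 22.7 and 23.2 CPM and was not called (log2 change -0.15), though with trends on base composition and length removed it was (-0.23).

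Set against 8 h, which shares its 8 h and 24 h libraries with the comparisons above, 42 of 52 members were higher at 24 h and none lower, beside 55.5% of all genes called (28.4% higher). The median log2 difference was 1.63 against 0.05 for all genes. The groups did not overlap for 44 of 52 members, beside 65.0% of all genes. H3C8 differed by 5.50 (SE 0.25), H2AC6 by 0.77 and H2AC25 by 0.82. H1-2 did not follow, with a log2 difference of -0.10 that was not called, and -0.37, called, with trends on base composition and length removed. For H2BC5 the direction depended on the treatment of base composition and length, as given in the closing section. With at least 10 counts in every library 27 of 32 members were called.

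By 48 h, 22 of 52 members were above their 0 h level and 3 below it, with 44.1% of all genes called (23.4% higher, 20.7% lower). The median log2 change was 0.60 against 0.03 for all genes, and the groups did not overlap for 35 of 52 members, beside 62.3% of all genes. The 3 lower members were H2AC6, H2AC25 and H2BC12. H2AC6 was at 66, 67 and 60.9 CPM (log2 change -0.26, adjusted p = 0.00102, a call lost when counts were scaled by library size alone). H2AC25 was at 44.7, 44.8 and 40.5 CPM (-0.38, adjusted p = 0.00153). H2BC12 was at 32.9, 30.7 and 30.1 CPM (-0.28), below its 0 h libraries without overlap. The H2BC12 call was lost with scaling by library size alone (-0.12), without 0 h replicate 1 (-0.27) and without 48 h replicate 2 (-0.27) or 3 (-0.26).

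The 4 tested H1 genes were all called higher at 48 h, but only H1-2 among them reached 1 CPM. H1-2 reached 50.9, 49 and 48.4 CPM, above the 28, 27.4 and 30.6 CPM of 0 h, a log2 change of 0.79 (adjusted p = 3.77e-06). H1-3 and H1-4 were higher by 1.66 and 1.40 on the log2 scale at 0.119 to 0.213 and 0.119 to 0.156 CPM, calls that were lost in 6 and 5 alternative analyses. For H1-3 these included leaving out 0 h replicate 2 (1.37) or 3 (1.67) or 48 h replicate 1 (1.44) or 3 (1.66), and for H1-4 leaving out 0 h replicate 1 (1.13) or 2 (1.42) or 48 h replicate 1 (1.28). H1-5 was at 0.0231, 0.0198 and 0.0298 CPM, or 4, 3 and 5 counts, after 0 counts at 0 h. These values are near the 3-count limit and allow no fold change. Among the core histones HIST2H2AA4, one of an identical pair, reached 15.3, 14.6 and 13.7 CPM from 8.88, 8.03 and 9.37, a log2 change of 0.73 (adjusted p = 6.37e-06). H3C10 reached 5.79, 5.47 and 5.14 CPM, a log2 change of 1.00. H3C6, H4C8, H4C14 and H2BC5 were near their 0 h level, with log2 changes of -0.13, 0.02, 0.07 and -0.01, none of them called. The libraries of H3C6 and H4C14 did not overlap those of 0 h but lay next to them. H3C6 was called (-0.12) with only the compared groups in the fit, and H4C14 (0.23) with scaling by library size alone. From 24 to 48 h, 19 members rose and 5 fell, beside 53.7% of all genes called (28.2% higher, 25.5% lower). The groups did not overlap for 26 members, beside 68.0% of all genes. H1-2 and H3C6 rose by 1.56 and 1.52 on the log2 scale over that interval. H3C8 fell by 2.64, to 0.467, 0.515 and 0.608 CPM, and H2BC26 and H2BC9 fell by 0.97 and 1.05.

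**Figure D4:**
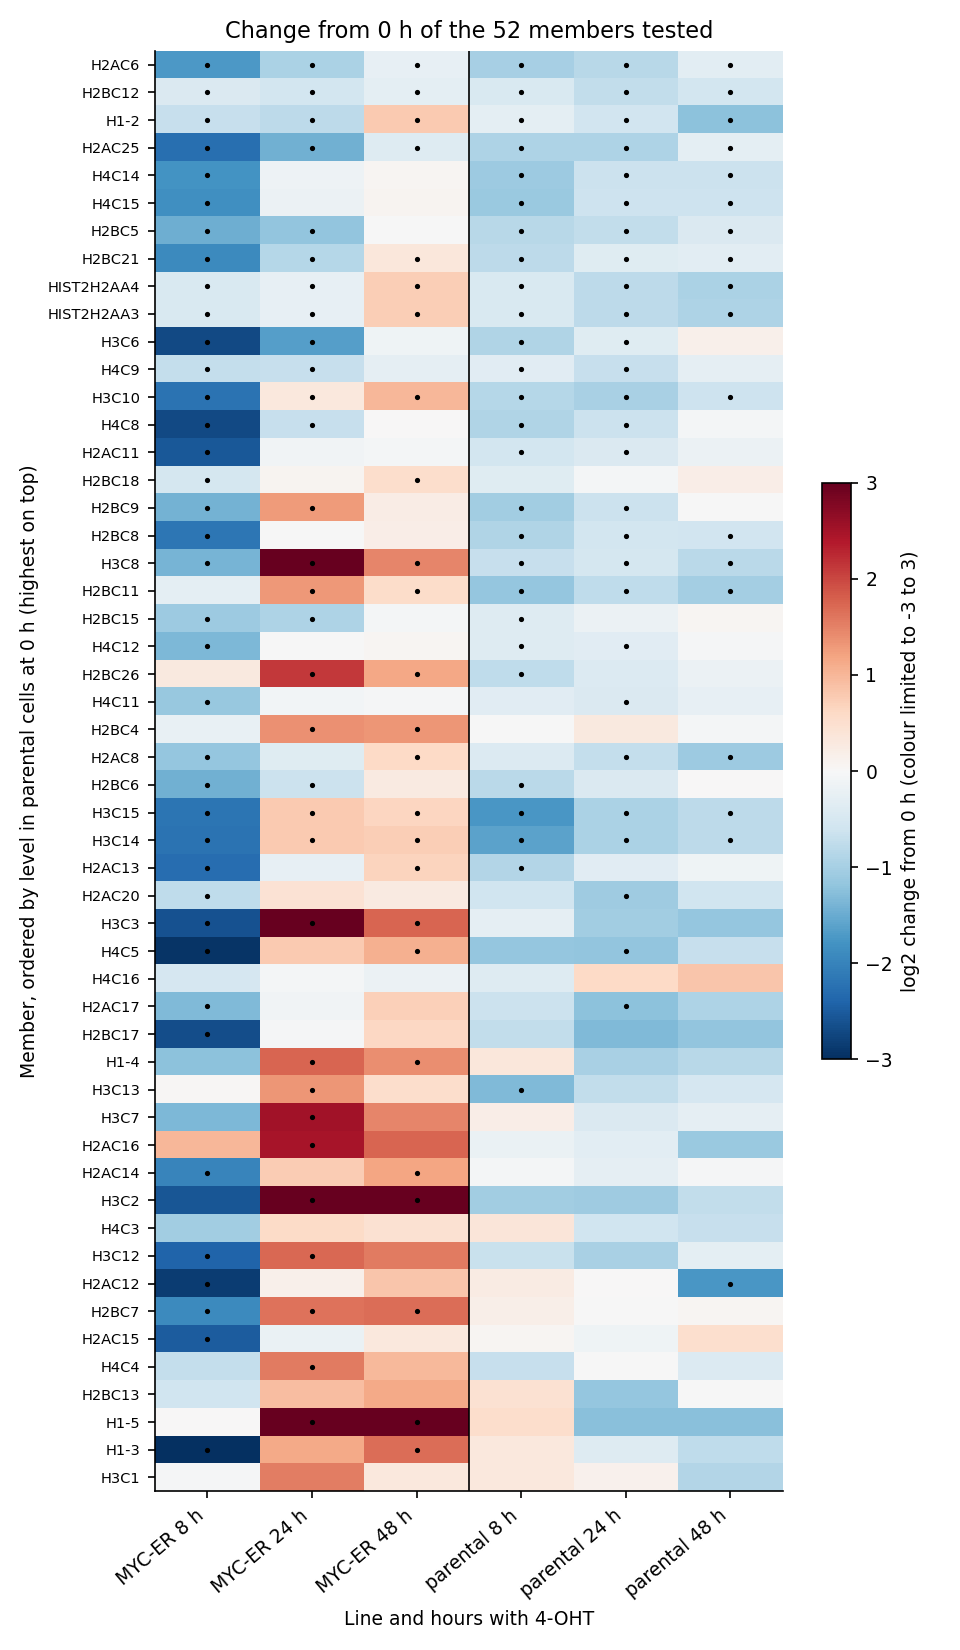
Log2 change from 0 h of the 52 tested members at 3 times in each line, ordered by level in parental 0 h (colour limited to -3 to 3; dots mark calls). At 8 h in MYC-ER cells 38 members are called and all are lower, at 24 h 18 are higher and 13 lower, and in parental cells no member is called higher at any time.

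How a member stood at 24 and 48 h varied with its count level. Members with at least 2 CPM in parental 0 h numbered 20, all tested. At 24 h in MYC-ER cells 4 of them were higher and 11 lower, with a median log2 change of -0.25, and at 48 h 8 were higher and 3 lower, with a median of 0.15. The members under 2 CPM numbered 49, of which 32 were tested. At 24 h 14 of these were higher and 2 lower, with a median of 0.79, and at 48 h 14 were higher and none lower, with a median of 0.79 again. At 8 h 19 of the 20 members with at least 2 CPM were lower, and 19 of the 32 tested members under 2 CPM. The Spearman correlation over the 52 tested members between parental 0 h CPM and the MYC-ER log2 change was 0.02, -0.67 and -0.60 at the 3 times. The parental libraries that set the level are in none of these contrasts, but all members share the same MYC-ER libraries and low-count members are noisier. Members near 0 in MYC-ER 0 h, such as H3C2 (2, 0 and 0 counts) and H1-5 (0 in all 3 libraries), passed the count filter through other groups. Such members could hardly be called lower than 0 h. How far the filter shaped the split by level and the correlations was not tested. With the level taken per kilobase of the longest transcript, which 50 of the 52 have, it was 0.056, -0.63 and -0.52. In summed level the members under 2 CPM went from 16.3 CPM at 0 h to 7.46, 20.2 and 22.5, and the others from 373 CPM to 138, 229 and 383, so the latter made up most of the total at every time.

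**Figure D5:**
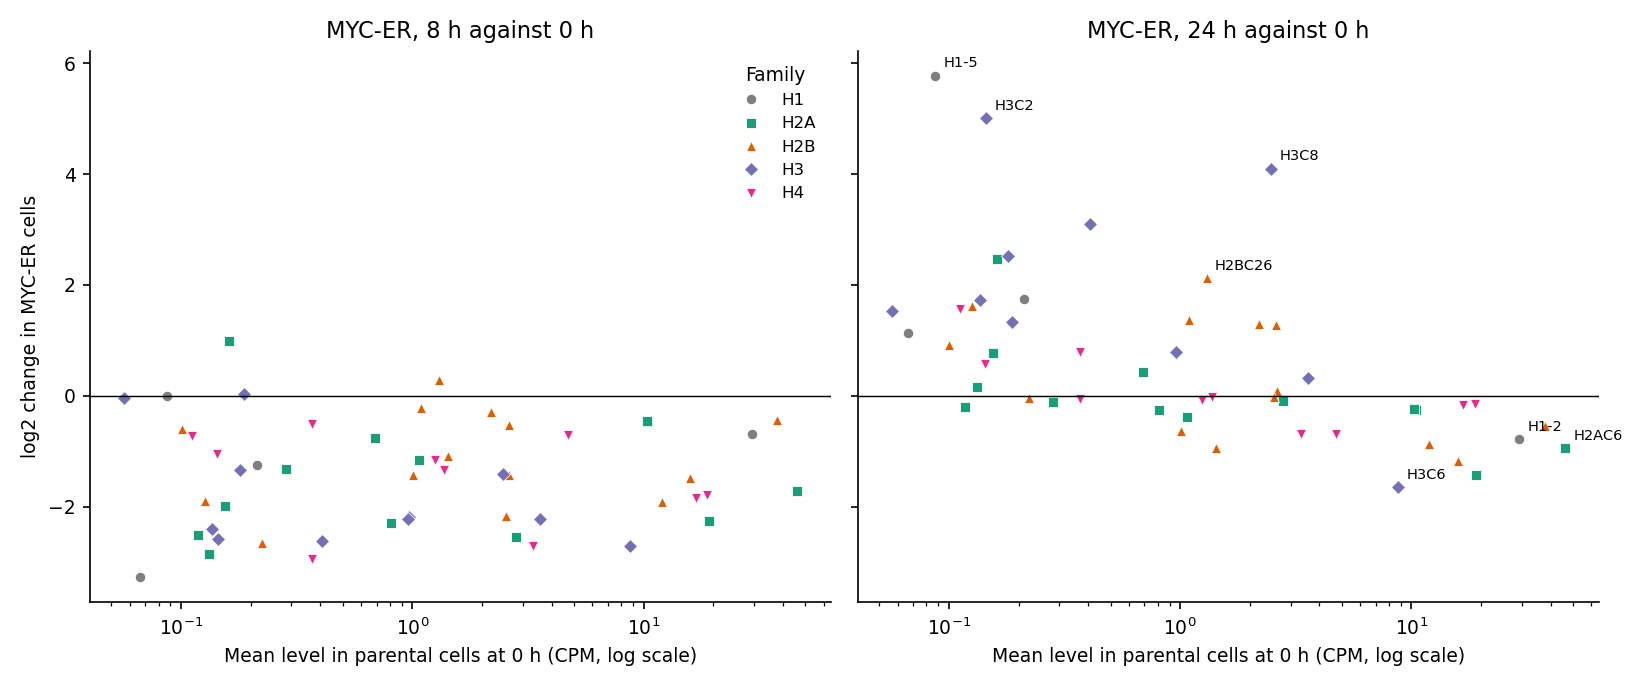
Log2 change from 0 h in MYC-ER cells at 8 h and 24 h against the mean CPM in parental 0 h (log axis); each point is 1 of 52 tested members, coloured by family. At 8 h nearly all points lie below 0 at every level (median -1.41), and at 24 h members with few counts lie mostly above 0 and those with the most below it; H1-5 had 0 counts at 0 h and its fitted value depends on the prior count.

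The head-to-head pairs, whose starts lie within 500 bases of each other on opposite strands, did not always move as 1 unit. There were 12 such pairs, 11 of them of H2A with H2B, and 9 had both genes tested. At 8 h both genes were lower in 5 pairs and at least 1 gene was not called in 4. Among the 5, H2BC17 counts in 2 pairs, with H3C12 and with H2AC17, whose calls were lost in 7 and 5 alternative analyses. The annotated start of H3C12 (chr6:27893106) lies inside H2AC17 (chr6:27892757-27893149) on the same strand. These 2 pairs therefore cover the same stretch, and both are in the counts of pairs above. Leaving out 0 h replicate 2 (-1.44) or 8 h replicate 1 (-1.87) or 3 (-1.83) ended the call of H3C12, and leaving out 0 h replicate 2 (-1.23) or 8 h replicate 1 (-1.29) or 2 (-1.28) that of H2AC17. For H2BC8 and H2AC8 the log2 changes were -2.17 and -1.15, for H2BC21 and H2AC20 they were -1.91 and -0.77, and for H2BC12 and H2AC12 they were -0.44 and -2.85, the last with libraries that overlapped. The H2AC12 call was lost without 0 h replicate 1 (-2.13) and without 8 h replicate 1 (-2.35) or 3 (-2.31), and that of H2AC20 with base composition and length trends removed (-0.46). H2AC11 fell by 2.55 on the log2 scale while H2BC11, whose start lies 291 bases away, had -0.29 and was not called. At 24 h the 2 genes went in opposite directions in 2 pairs, and in the other 7 at least 1 gene was not called.

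Both divergent pairs are those whose promoters are printed above. H2BC4 and H2AC6 have 218 bases between their starts. H2BC4 was at 0.609, 0.51 and 0.526 CPM at 0 h, 0.463, 0.525 and 0.427 at 8 h, 1.52, 1.29 and 1.45 at 24 h and 1.19, 1.37 and 1.55 at 48 h. At 24 and 48 h it was above 0 h without overlap, by 1.37 and 1.32 on the log2 scale, where H2AC6 had changes of -0.94 and -0.26. H2BC26 and H2AC25 have 233 bases between their starts, and their log2 changes were 2.12 and -1.43 at 24 h and 1.15 and -0.38 at 48 h. The direct contrast within a pair was not tested. Averaged over the 24 libraries the genes that were higher had the lower levels per kilobase, 1.59 CPM for H2BC4 against 25.3 for H2AC6 and 0.606 CPM for H2BC26 against 26.2 for H2AC25.

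In parental MCF-10A cells, 4-OHT was followed by falls at all 3 times. At 8 h 27 of 52 members were lower and none higher, beside 31.0% of all genes called (16.0% lower). At 24 h 27 were lower and none higher, beside 42.9% (21.7% lower), and at 48 h 18 were lower and none higher, beside 40.5% (20.4% higher, 20.1% lower). The median log2 changes were -0.57, -0.63 and -0.53, against 0.00, -0.03 and 0.00 for all genes. The groups did not overlap for 30, 34 and 21 members, beside 33.9%, 43.1% and 39.0% of all genes. The 8 h count dropped to 16 when only the parental 0 and 8 h libraries entered the fit, and the 3 counts were 19, 19 and 12 with trends on base composition and transcript length removed. Under that alternative 1 of the 19 at 24 h was higher, H2BC4, with a log2 change of 0.47. The parental 0 h group was the widest of the 8, with a chi-square per degree of freedom between its replicates of 163 to 268, where all pairs ran from 8.63 to 268.

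H2AC6 went from 45.6, 44.7 and 47.8 CPM in parental 0 h to 21.9, 24.3 and 23.4 at 8 h, 26, 25.8 and 25.7 at 24 h and 38, 35 and 38.4 at 48 h. Each treated group lay below 0 h without overlap, with log2 changes of -0.99, -0.83 and -0.31, the last not called with only the compared groups in the fit (adjusted p = 0.0502). At 8 h H2AC25 fell by 0.92 and H4C14 by 1.08 on the log2 scale. H1-2 went the other way from MYC-ER cells at 48 h. It was at 27.9, 24 and 36 CPM at 0 h and 11.3, 13.1 and 13.3 CPM at 48 h, a log2 change of -1.22 (adjusted p = 4.83e-07). At 8 h its libraries (25.7, 24 and 21.5 CPM) overlapped those of 0 h. That call (log2 change -0.30, adjusted p = 0.0379) was lost in 9 alternative analyses, among them those without parental 0 h replicate 1 (-0.34) or 3 (-0.12) and without 8 h replicate 2 (-0.31) or 3 (-0.24). HIST2H2AA4 fell by 0.46, 0.78 and 0.94 at the 3 times, the first change being -0.11 and not called with those trends removed. H3C6 was lower at 8 h (-0.89) and had a log2 change of 0.14 at 48 h that was not called.

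Before any drug the lines already differed. With 0 h libraries only, 15 of 52 members were higher in MYC-ER cells and 20 lower, beside 64.3% of all genes called (31.6% higher, 32.7% lower), so the members' share was near the background. The split became 17 higher and 12 lower with trends on base composition and transcript length removed, and 17 and 14 with base composition alone removed, and the median was -0.27 in the analysis reported here. The groups did not overlap for 30 members, beside 65.0% of all genes. These 0 h libraries are the references of the changes above. Of the H3 genes, 10 of 11 were lower in MYC-ER cells and 1 was higher, with a median log2 difference of -1.74. H3C1, H3C2, H3C3, H3C7 and H3C12, among the lower ones, had at most 14 counts in any MYC-ER 0 h library. They passed the count filter through other groups. How far the filter shaped this count and median was not tested. Among the 10, the H3C10 call (-0.38) was lost with base composition and length trends removed (-0.20) and without MYC-ER 0 h replicate 2 (-0.30) or parental 0 h replicate 3 (-0.33). Of the H4 genes, 5 of 10 were higher and none lower, with a median of 0.47. The tested H4 genes include H4C11 with its copy H4C12 and H4C14 with its copy H4C15, and the H3 genes include the copies H3C14 and H3C15. Copies are not separate evidence in these counts. H3C8 was lower by 3.68 (SE 0.22, adjusted p = 2.68e-12) and H3C6, the H3 gene that was higher, stood 1.63 above parental on the log2 scale. H4C8 and H2AC25 were higher by 1.61 and 1.57 on the log2 scale. H1-2 did not differ beyond the spread, with a log2 difference of -0.03. The sum of all 69 was higher in MYC-ER cells, 390 ± 9.33 against 268 ± 22.1 CPM, and H2AC6 and H2AC25 were among the higher ones.

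Whether the change with 4-OHT differed between the lines was tested as the line by time interaction, the MYC-ER log2 change minus the parental one. At 8 h 23 of 52 members changed further downward in MYC-ER cells and 2 further upward, beside 55.2% of all genes called (27.3% higher, 27.8% lower). At 24 h 24 were further upward and 5 downward, beside 54.5% (27.7% and 26.8%), and at 48 h 26 were upward and none downward, beside 45.0% (23.6% and 21.4%). The median interactions were -0.72, 1.06 and 1.21, against -0.08, 0.02 and 0.07 for all genes. At 8 h H3C6 and H4C8 differed by -1.81 and -1.80 and H2AC6 by -0.73. At 24 h H3C8 differed by 4.62 and H2BC26 by 2.53. H2BC4 differed by 1.08 at 24 h and 1.38 at 48 h. At 48 h H1-2 differed by 2.01 (SE 0.16, adjusted p = 1.14e-09) and HIST2H2AA4 by 1.67. These interactions are made of the same libraries as the changes within each line.

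Genes that act on histone genes and their transcripts were described from lists of the pathway. Beside each count below stand the 32.2% higher and 35.4% lower of all genes at 8 h, the 30.4% and 31.2% at 24 h, and the 23.4% and 20.7% at 48 h. Among 9 regulators of histone gene transcription, cyclin E genes and E2F1 among them, 6 were higher and 2 lower at 8 h in MYC-ER cells, and 8 were higher and 1 lower at 24 h. NPAT, the coactivator of the histone clusters, had a group mean of 18.2 ± 1.4 CPM (SD, n = 3) at 0 h and 18.7 ± 1.2 CPM at 8 h, a log2 change of 0.03 that was not called, and 24.5 ± 0.99 CPM at 24 h (0.42, called). HINFP, which binds H4 promoters, fell from 30.0 to 15.1 CPM at 8 h (log2 change -0.99) and was at 18.5 CPM at 24 h. POU2F1, which binds the octamer, fell from 10.9 to 7.04 CPM at 8 h and rose to 32.9 CPM at 24 h, log2 changes from 0 h of -0.63 and 1.60. CCNE2, a cyclin E, and E2F1, an activator of S phase genes, rose at 8 h by 3.15 and 4.04 on the log2 scale, when 38 histone genes were lower.

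Most of the factors listed for the canonical 3' end were higher in MYC-ER cells at 8 h, when the measured histone transcripts were lowest. Of 12 genes of 3' end processing, 10 were higher at 8 h and 10 at 24 h with none lower, and 2 were higher and 5 lower at 48 h. The summed level of the 12 was 148%, 131% and 97.9% of 0 h at these times in MYC-ER cells. In parental cells it was 94.6%, 94.5% and 93.2% of 0 h, where the histone sum was 61.4%, 62.9% and 71.2%. A link between the courses was not tested. SLBP went from 31.1 ± 0.98 CPM at 0 h to 58.1 ± 0.67 at 8 h, 60.3 ± 1.5 at 24 h and 26.8 ± 0.26 at 48 h (SD, n = 3). The log2 changes from 0 h were 0.90 (adjusted p = 8.36e-15), 0.96 and -0.21. LSM10 of the U7 particle rose from 20.3 to 44.8 CPM at 8 h (log2 change 1.14) and was at 15.3 CPM at 48 h. Of 8 genes of histone message translation and decay, 3 were higher and 4 lower at 8 h. ERI1, an exonuclease that trims the hairpin end, rose by 1.32 on the log2 scale at 8 h, and TUT7, a terminal uridylyltransferase, fell from 182 to 58.5 CPM (-1.64).

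Other genes of S phase took a course unlike that of the histone genes. Of 25 S phase genes, 19 were higher and 4 lower at 8 h and all 25 were higher at 24 h, with medians of 1.24 and 3.39. Their summed level was 434 ± 4.52 CPM at 0 h and 199%, 596% and 156% of that at 8, 24 and 48 h, against the 37.3%, 63.9% and 104% of the histone sum. At 0 h the MYC-ER line had less of all 25 than the parental line. PCNA, the sliding clamp of the replication fork, was at 38.8, 70.5, 176 and 47.1 CPM across the 4 times. Among 22 histone chaperones and importers 16 were higher and 3 lower at 8 h, and 16 were higher and 2 lower at 24 h. ASF1B, which hands H3 and H4 to the assembly machinery, rose from 0.284 ± 0.043 to 4.29 ± 0.057 CPM at 8 h and 31.7 ± 0.24 CPM at 24 h, log2 changes of 3.91 and 6.80.

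Histone genes outside the replication-dependent set make polyadenylated messages as a rule. Of the 11 on the list, 6 were higher and 5 lower at 8 h, and 6 higher and 4 lower at 24 h. H2AX, the variant phosphorylated at DNA breaks, rose from 13.6 to 41.5 CPM at 8 h and 78.9 CPM at 24 h (log2 changes 1.61 and 2.53). H2AZ1 rose from 72.7 to 107 and 369 CPM (0.56 and 2.34). Of the 6 members known for polyadenylated forms (H1-2, H2AC6, H2BC4, H2BC5, H2BC12 and H2BC21), 5 were lower at 8 h in MYC-ER cells, and at 24 h 5 were lower and 1 higher. In parental cells 5 of the 6 were lower at each time, all but H2BC4. With trends on base composition and transcript length removed 3 were lower at each time, and H2BC4 was higher at 24 h (0.47).

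RNAs that carry no poly(A) tail bear on how much unpolyadenylated RNA each library held. Of 24 such RNAs on a list, 9 were tested, and at 8 h in MYC-ER cells 2 were lower and none higher. Their summed level was 18.3, 26.1, 19.5 and 26.2 CPM at 0, 8, 24 and 48 h in MYC-ER cells and 19.9, 18.1, 13.0 and 16.6 CPM in parental cells. The 3 libraries of MYC-ER cells gave 14.3, 17.1 and 23.3 CPM at 0 h and 29.2, 19.7 and 29.6 CPM at 8 h, and these groups overlapped. The split of each histone gene's counts between polyadenylated and hairpin-ended transcripts was not measured.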

How the data were processed

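Poly(A)-selected, stranded libraries were sequenced as 150-base pairs, 3 libraries to a lane, per the labels' protocols. The lane of each library is not given. The authors deposited 1 table of whole-number counts per gene, not normalised. The submitters' processing notes name Trimmomatic 0.39, STAR, StringTie 2.1.3b and GRCh38. The annotation release, the use of strand and the treatment of reads that match several genes are not given in the sources used here. If StringTie derived the counts from coverage they are estimates, and the 3-count limit and the chi-square between replicates are approximate. Both cover counting error only, since PCR copies were not marked.

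Symbols came from a table of gene names, which matched 60340 of 60668 rows, and for 2 members (HIST2H2AA3 and HIST2H2AA4) from GENCODE 29. Genes that passed filterByExpr entered an edgeR 4.0.16 model (R 4.3.3, TMM scaling) of the 24 libraries, with a mean for each of the 8 groups, and were tested with the two-sided quasi-likelihood F test, adjusted by Benjamini-Hochberg within each contrast over 22158 genes, at 0.05. The biological coefficient of variation was 0.151. The test was tried first on simulated counts. CPM use TMM-scaled totals. Alternatives were DESeq2 1.42.0, other scalings and filters, the compared groups alone, base composition and length trends removed, a replicate block, and leaving out each library. Members are named in the text if they have at least 1 CPM and one of the largest changes, or by their family, pair or known polyadenylated form. The members and lists were chosen with earlier results of these data known. Marker lists were basal, luminal, fibroblast, leukocyte and endothelial.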

Additional observations from a re-analysis of the deposited data

Results flagged for a closer look

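The change with 4-OHT differed between the lines, by the interaction term in edgeR's quasi-likelihood test, for 25, 29 and 26 of 52 tested histone genes after 8, 24 and 48 h. Beside these stand 55.2%, 54.5% and 45.0% of all genes tested, so the counts were near the background. Their direction was not. The median interactions of the 52 members were -0.72, 1.06 and 1.21, against -0.08, 0.02 and 0.07 for all genes. As MYC-ER log2 change minus parental log2 change, the interaction at 8 h was -1.33 for H2AC25, -1.81 for H3C6 and -1.80 for H4C8. At 24 h it was -0.52 for H2AC25, -1.29 for H3C6, 1.30 for H3C10, 4.62 for H3C8 and 2.53 for H2BC26. At 48 h it was 2.01 for H1-2, 1.67 for HIST2H2AA4, 1.61 for H3C10, 2.27 for H3C8 and 1.32 for H2BC26. H2AC25 and H3C6 thus lay below the parental change at both 8 and 24 h, and the other 5 genes named at 24 or 48 h lay above it.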

How the results depend on the processing

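The analyses kept the direction of nearly all results. With 1 library left out in turn, the number of members called at 8, 24 and 48 h ran from 35 to 38, 25 to 29 and 18 to 22 in MYC-ER cells, and from 21 to 26, 22 to 28 and 16 to 20 in parental cells. It ran from 39 to 41 for 24 h against 8 h, 22 to 23 for 48 h against 24 h, 28 to 33 between the lines at 0 h, and 21 to 27, 27 to 29 and 21 to 25 for the interactions. Under the other alternatives 117 of 120 counts stayed within 1.5 times. The exceptions were 27 for 24 h against 8 h and 19 for the 24 h interaction, both with at least 10 counts required in every library, where 32 members are tested, and 16 for parental 8 h with only the compared groups in the fit. DESeq2 called 38, 29 and 25 members at 8, 24 and 48 h in MYC-ER cells.

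Small changes turned sign when trends on base composition and transcript length were removed. These were H2AC25 at parental 48 h (0.056, and 0.056 with the block), HIST2H2AA4 between the lines at 0 h (0.032, and 0.032 with the block) and H2BC5 for 24 h against 8 h (-0.036, and -0.035 with the block). With the replicate block and both trends, the H1-2 difference between the lines became 0.23. The cause was not tested. Members had a median GC content of 56.7% against 48.6% for tested genes, and a longest transcript of 717.5 against 2719 bases. With scaling by library size alone, the all-gene median shifted by more than 0.1 on the log2 scale in 5 contrasts. In MYC-ER cells it went from -0.02 to 0.09 at 24 h, from 0.03 to 0.19 at 48 h and from 0.05 to 0.26 for 24 h against 8 h. The interaction medians went from -0.08 to -0.20 at 8 h and from 0.07 to 0.17 at 48 h. At 48 h this scaling gave 27 members higher and 1 lower. Of 16 alternative values of the summed level, 12 moved by more than the spread between replicates.

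The labels number replicates 1 to 3 in every group, but the numbers did not pair the libraries. Correlations of same-numbered deviations ran from -0.08 to 0.09, and 29 of 84 were best with their own number. With a replicate block the counts were 37, 30 and 24 in MYC-ER cells at 8, 24 and 48 h, 43 and 24 between times, 27, 28 and 18 in parental cells, 33 between lines and 26, 29 and 26 for the interactions. Members under 1 CPM rest on few counts, and the 3-count limit bounds what could be seen of those at 0.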
